A study of Mus musculus with 28 samples.

Results

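The UDP-glucuronosyltransferases, the cytosolic sulfotransferases and the 3 enzymes that make their cofactors were followed in mouse liver through a NASH diet and treatment with FXR agonists. Members were taken by gene symbol: the Ugt1a, Ugt2a, Ugt2b and Ugt3a genes, the Sult1 to Sult6 genes, Papss1, Papss2 and Ugdh, 43 of the 47719 genes listed in each table. They comprise 9 Ugt1a, 3 Ugt2a, 7 Ugt2b, 2 Ugt3a, 6 Sult1 and 9 Sult2 genes, 4 other Sult genes and 3 cofactor genes. Of the 43, 27 were tested in all 10 tables, 3 in some tables and 13 in none.

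Glucuronosyltransferases join a glucuronic acid to steroids, bilirubin, bile acids and drugs, and draw it from UDP-glucuronic acid, which Ugdh makes by oxidizing UDP-glucose. Sulfotransferases move a sulfate group to phenols, steroids and bile acids from the donor PAPS, which the bifunctional PAPS synthases Papss1 and Papss2 make from sulfate and ATP. Both reactions make their substrates more water soluble for export in bile or urine, and the hepatocyte is their main site in liver.

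Liver mRNA of 28 male C57BL/6 mice, about 6 weeks old when the diets began, was sequenced in 7 groups of 4. Lean control mice ate a low-fat diet (10% of calories from fat, 0% fructose, 0% cholesterol). The other mice were fed 40% of calories as fat with 22% fructose and 2% cholesterol by weight, which induces nonalcoholic steatohepatitis (NASH), a fatty and inflamed liver, and after 26 weeks were dosed orally each day for 4 weeks. One pair of groups received obeticholic acid (OCA, a bile acid derivative) at 25 mg/kg or its vehicle. The remaining NASH groups received tropifexor (LJN452, which has no bile acid structure) at a low, mid or high dose, read as 0.1, 0.3 and 0.9 mg/kg in rising order since the labels do not pair them, or a vehicle of their own. Both compounds are agonists of FXR, the bile acid receptor. The vehicle groups were identified by their titles, because their treatment field names the drug. Samples were bulk liver of 1 strain and sex, so for every gene fewer cells of a type and less RNA per cell cannot be told apart.

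The files give 1 FPKM (fragments scaled to transcript length and library size) per group and table, not per animal, so the spread between animals is seen only through the authors' Cuffdiff test. A member was called when its test status was OK and the deposited q (the p adjusted over the whole table) was under 0.05. Fold changes are on the log2 scale, second group over first. Each standard error (SE) comes from the deposited statistic, rescaled by a common factor per table. That factor matches the errors to the deposited p in the median only. For a single gene, such as a Ugt1a gene or Sult5a1, the SE can differ from the error its own p implies. Depth per library is unknown. Over all genes with an FPKM of 1 or more, the median log2 fold change lay between -0.039 and 0.028 in the 10 tables. Of 6 hepatocyte markers all were tested in every table. In the tables against lean control their summed FPKM lay between 66300 and 75000 in lean control. In the NASH groups of the same tables it was lower, between 39500 and 54300. Alb alone, the serum albumin gene, stood at 37100 FPKM with the OCA vehicle and at 35400 with the tropifexor vehicle (table of the low dose). FPKM is scaled separately in each table, so these values show the size of the Alb signal and do not compare the vehicle groups.

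The promoters of 6 members are shown because these genes carry the largest or most repeated changes below: Ugt2b1, which fell at the 3 tropifexor doses, Sult2a8, which fell at the low and high doses, Sult1a1, Sult1e1 and Papss2 of the sulfation pathway, and Ugt1a9, the member of the shared Ugt1a locus with a call. Each window runs from 250 bases before to 50 bases after a RefSeq transcript start (build GRCm38.p6), 5′ to 3′ on the gene's strand. Capitals mark the nuclear receptor hexamer AGGTCA or its reverse complement TGACCT.
Ugt2b1 promoter, chr5:86926454-86926753, minus strand: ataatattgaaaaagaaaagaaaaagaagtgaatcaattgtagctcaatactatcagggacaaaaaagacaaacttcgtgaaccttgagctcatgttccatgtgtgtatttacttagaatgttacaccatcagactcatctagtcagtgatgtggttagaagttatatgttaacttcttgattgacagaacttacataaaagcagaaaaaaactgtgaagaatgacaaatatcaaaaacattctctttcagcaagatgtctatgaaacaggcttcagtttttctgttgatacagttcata
Sult2a8 promoter, chr7:14446538-14446837, minus strand: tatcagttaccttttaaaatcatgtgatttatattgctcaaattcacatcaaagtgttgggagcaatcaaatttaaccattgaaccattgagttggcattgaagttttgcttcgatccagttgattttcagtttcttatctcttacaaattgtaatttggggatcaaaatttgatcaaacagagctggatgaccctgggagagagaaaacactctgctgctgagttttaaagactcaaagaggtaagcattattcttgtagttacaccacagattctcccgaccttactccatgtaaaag
Sult1a1 promoter, chr7:126676369-126676668, minus strand: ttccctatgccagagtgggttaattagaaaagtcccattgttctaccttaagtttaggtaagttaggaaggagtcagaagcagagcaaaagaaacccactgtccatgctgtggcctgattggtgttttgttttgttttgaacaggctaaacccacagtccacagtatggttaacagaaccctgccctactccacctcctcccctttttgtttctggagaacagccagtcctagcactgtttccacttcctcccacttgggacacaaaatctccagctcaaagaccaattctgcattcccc
Sult1e1 promoter, chr5:87591562-87591861, minus strand: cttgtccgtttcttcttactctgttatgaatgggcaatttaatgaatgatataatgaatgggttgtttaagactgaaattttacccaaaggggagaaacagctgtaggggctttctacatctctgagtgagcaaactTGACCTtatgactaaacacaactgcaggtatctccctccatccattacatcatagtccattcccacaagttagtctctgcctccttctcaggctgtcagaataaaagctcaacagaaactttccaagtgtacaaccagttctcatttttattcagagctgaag
Papss2 promoter, chr19:32619755-32620054, plus strand: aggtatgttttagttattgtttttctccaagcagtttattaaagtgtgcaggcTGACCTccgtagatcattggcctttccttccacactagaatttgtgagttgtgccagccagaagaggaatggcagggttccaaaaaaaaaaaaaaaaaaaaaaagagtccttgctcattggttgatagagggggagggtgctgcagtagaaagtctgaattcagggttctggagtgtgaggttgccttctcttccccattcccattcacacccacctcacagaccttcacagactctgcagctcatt
Ugt1a9 promoter, chr1:88070529-88070828, plus strand: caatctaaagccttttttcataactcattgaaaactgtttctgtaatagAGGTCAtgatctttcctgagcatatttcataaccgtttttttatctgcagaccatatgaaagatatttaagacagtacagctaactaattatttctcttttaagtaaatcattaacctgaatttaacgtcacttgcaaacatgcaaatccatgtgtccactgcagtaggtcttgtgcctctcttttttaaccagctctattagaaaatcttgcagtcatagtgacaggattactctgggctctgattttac

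RefSeq windows were found for 37 members, 42 windows in all. The members Sult2a7, Sult2a1, Sult2a2, Ugt3a2, Ugt1a6b and Sult4a1 had none. The full FXR element (IR-1, AGGTCANTGACCT) was in 0 of the 42, also with 1 mismatch allowed, against 0.00922% and 0.083% of all 32544 windows. Direct repeats with 1 base between (AGGTCANAGGTCA) and with 4 bases between (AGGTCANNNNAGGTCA) were also in 0 of 42, against 0.0399% and 0.0154% of all windows. The single hexamer AGGTCA, searched on both strands, was in 11 member windows and in 16.2% of all windows. In the printed windows it stood 197 bases before the start in Papss2, 113 in Sult1e1 and 201 in Ugt1a9. Sult2a8 held it in the other of its 2 windows, which is not printed. The AHR core GCGTG was in 9 member windows and 32.6% of all windows, and the antioxidant core TGACNNNGC in 1, that of Ugdh, and 12.4% of all. These matches describe letters in short windows only.

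The members lie in a few clusters on GRCm38 (GENCODE M21). Chromosome 5 holds 13 of them between 86889767 and 87591594, with 10 Ugt2 genes from Ugt2b34 to Ugt2a2 followed by Sult1b1, Sult1d1 and Sult1e1. Chromosome 7 holds 8 Sult2a genes between 13623967 and 14494230, with Sult2a8 (14410686 to 14446769) beside Sult2a7 (14465051 to 14494230). Chromosome 1 holds the 9 Ugt1a genes between 88055388 and 88220002, and chromosome 15 holds Ugt3a1 and Ugt3a2 between 9276888 and 9370955.

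Levels in lean liver ranged widely. Per length, Sult2a8, a bile acid sulfotransferase of mouse liver, had the highest level of all members with 465 FPKM in the table of the OCA vehicle group. It was followed by Ugt2b36 with 338, the bilirubin transferase Ugt1a1 with 337, the phenol sulfotransferase Sult1a1 with 317 and Ugt2b5 with 206 FPKM. Ugt2b34 (166 FPKM), Ugt3a2 (160), Ugt2b1 (141), Ugt2a3 (96.3), Sult1d1 (80.5) and Ugdh (69.2) came next. Papss2 stood at 59.1 FPKM and Papss1 at 5.2. No test was made between genes, so this order is a description of 1 group value each.

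At the other end, 13 members were tested in no table: Sult1c1, Sult2a1, Sult2a3, Sult2a4, Sult2a5, Sult2a6, Sult3a1, Sult4a1, Sult6b1, Ugt1a2, Ugt1a8, Ugt2a1 and Ugt2a2. The highest FPKM among them in any group was 0.193, that of Ugt1a2, and several were listed at 0 in lean control. Sult2a2 and Sult2b1 were tested only in the 2 tables of the low dose, and Ugt1a10, at 0.187 to 0.382 FPKM in the tables that tested it, in all but that of the high dose against vehicle. The female-type cluster genes Sult2a1 to Sult2a6 thus stayed under 0.5 FPKM in all 7 groups of these male mice.

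**Figure D1:**
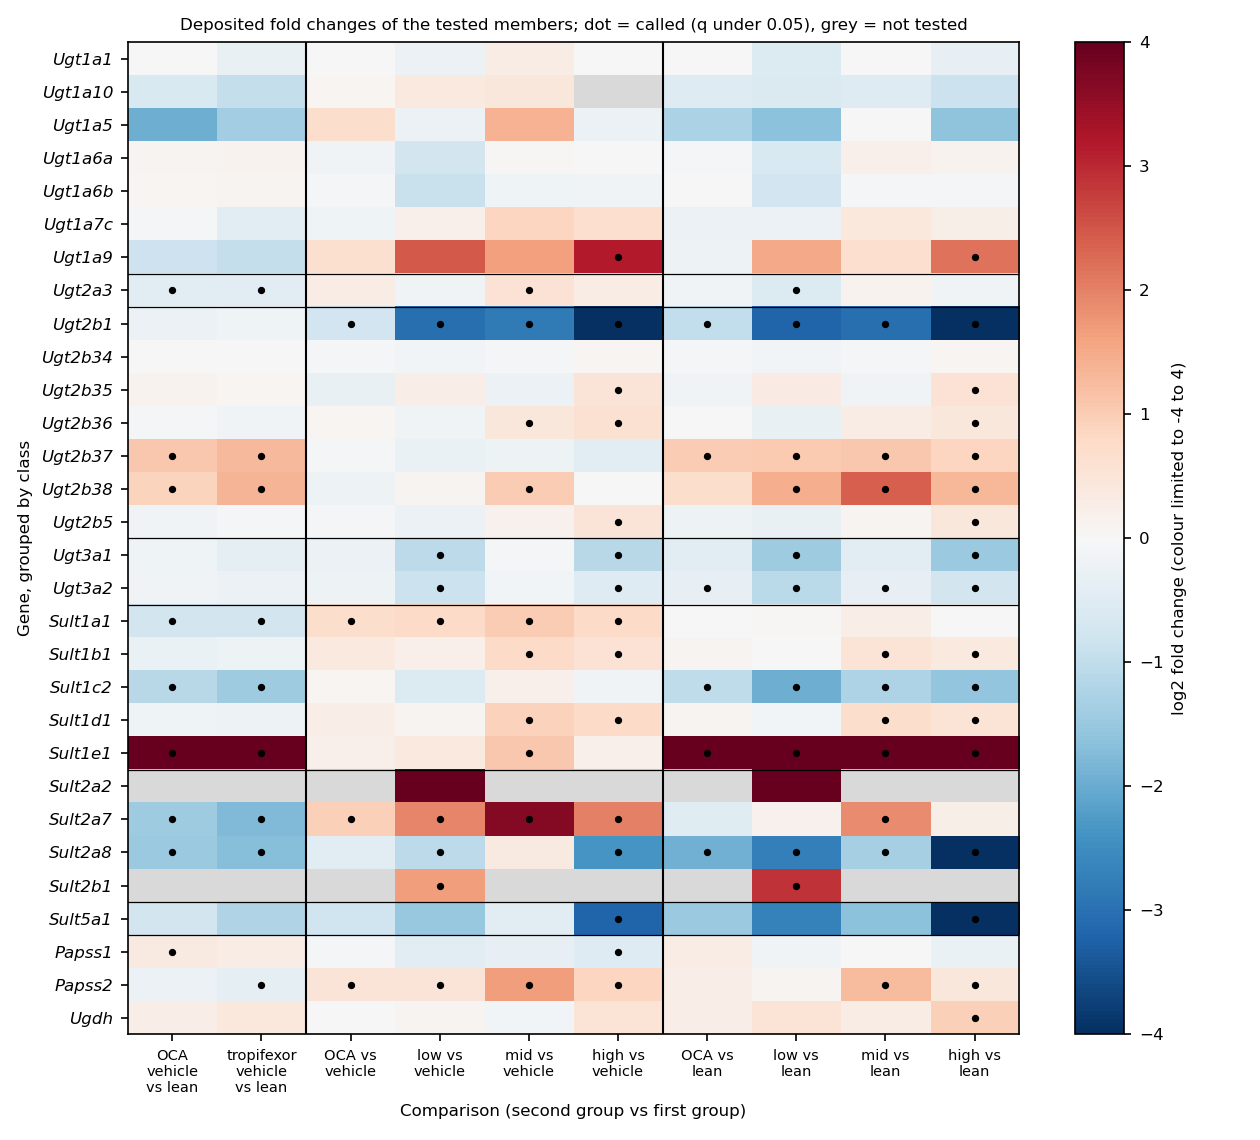
Colour gives the deposited log2 fold change of each tested member (rows, by class) in each of the 10 comparisons (columns; limited to -4 to 4), a dot marks a call, and grey marks no test. Ugt2b1 is called lower in every drug column, Sult1e1 is called higher in every column against lean control, and the Ugt1a rows hold calls for Ugt1a9 only.

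The first comparison asked what the NASH diet did to conjugation genes, in each vehicle group against lean control. No dosing is recorded for the lean mice, so diet and vehicle dosing cannot be told apart here. Changes ascribed to the diet below mean this contrast. The bile acid sulfotransferase Sult2a8, its neighbour Sult2a7, Sult1a1, Sult1c2 and Ugt2a3 fell, and the estrogen sulfotransferase Sult1e1, nearly absent from lean liver, rose steeply. For the OCA vehicle group, the authors' deposited table tested 28 members, of which 4 were called higher (14.3%) against 11.4% of all genes tested and 5 lower (17.9%), against 6.56% of all genes. For the tropifexor vehicle group 3 of 28 were called higher (10.7%), against 12.1% of all genes, and 6 lower (21.4%), against 8.53%. The members' median log2 fold change was -0.15 and -0.21 in these 2 tables, against 0.02 and 0.01 over all tested genes. Both diet comparisons use the same lean mice.

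Sult1e1, which inactivates estrogens by sulfation, went from 0.31 FPKM in lean control to 6.09 in the OCA vehicle group, and from 0.312 to 11.2 in the tropifexor vehicle group. By the authors' deposited table this was a rise of 4.30 (log2, SE 0.265, q = 0.000588), or 19.7-fold, in the first. In the second, the authors' deposited table gave 5.16 (SE 0.272, q = 0.000507), or 35.9-fold. The difference between the vehicle groups was 0.87 (95% interval 0.12 to 1.61) and was not called.

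Sult2a8 went the other way, from the top of the lean list down to 165 FPKM in the OCA vehicle group and from 467 to 145 in the tropifexor vehicle group. The authors' deposited tables give a decrease, -1.49 (SE 0.174) in the first and -1.69 (SE 0.148) in the second, both called. Sult2a7, a minor neighbour with 3.25 FPKM in lean control, was called lower in both authors' deposited tables, at -1.42 (SE 0.206; 1.22 FPKM) and -1.77 (SE 0.236; 0.956 FPKM). The 2 transcripts are 74% identical over 820 aligned bases, and neither shares a stretch of 75 bases with another gene, so reads of that length can be told apart.

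Among the other sulfotransferases, Sult1a1, which sulfates phenols and phenolic drugs, was called lower at -0.72 (SE 0.147; 317 to 192 FPKM) and -0.73 (SE 0.134; 319 to 193 FPKM) in the authors' deposited tables. Sult1c2 was called lower at -1.10 (SE 0.13; 9.82 to 4.57 FPKM) and -1.41 (SE 0.146; 9.87 to 3.71 FPKM). The thyroid hormone and phenol sulfotransferase Sult1b1 had -0.27 and -0.19, and the catecholamine sulfotransferase Sult1d1 -0.17 and -0.21, neither with a call. Sult5a1 had -0.72 and -1.19 without a call. Its deposited locus spans 4440 kb against 18.1 kb for the gene, so its values are uncertain. Its rescaled error is too wide to use, unlike the error from its own p. For the difference between the vehicle groups the 95% intervals were -12.05 to 11.10 and -3.20 to 2.25 with these errors.

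Among the glucuronosyltransferases, Ugt2a3 was called lower, with -0.46 (SE 0.129; 96.3 to 70.1 FPKM) and -0.42 (SE 0.127; 96.8 to 72.2 FPKM) in the authors' deposited tables. Ugt2b37 and Ugt2b38 rose, from 0.297 to 0.627 FPKM and from 0.32 to 0.588 FPKM with the OCA vehicle, all below 1 FPKM. Their rises were 1.08 (SE 0.259) and 0.88 (SE 0.268) there, and 1.31 (SE 0.266) and 1.36 (SE 0.261) with the tropifexor vehicle, by the authors' deposited tables. Ugt2b38 shares 28% of its 75-base stretches with Ugt2b5 and Ugt2b37, so its value is uncertain.

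The abundant Ugt2b genes had values close to 0 without a call: Ugt2b36 -0.08 and -0.14, Ugt2b5 -0.13 and -0.05, Ugt2b34 0.01 and 0.01, Ugt2b35 0.13 and 0.07, and Ugt2b1 -0.22 and -0.17 for the OCA and the tropifexor vehicle group. Ugt3a1 (-0.17 and -0.36) and Ugt3a2 (-0.14 and -0.22), whose enzymes use sugar donors other than UDP-glucuronic acid, had no call either. Of 7 tested Ugt1a genes, 0 were called in either diet table by Cuffdiff. At an unadjusted p under 0.05 the count was 0 and 1 (Ugt1a5, with -1.38).

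The cofactor genes moved little. Papss1 rose by 0.37 (SE 0.13; 5.2 to 6.74 FPKM) with the OCA vehicle and had 0.29 without a call with the tropifexor vehicle. Papss2, the major PAPS synthase of liver by level here, fell by 0.40 (SE 0.127; 59.4 to 44.9 FPKM) in the tropifexor vehicle group and had -0.25 without a call in the other, by the authors' deposited tables. Ugdh had 0.28 and 0.42 without a call. For all 28 members tested the diet effect was set against itself in the other vehicle group, and 0 differences were called, against 0.381% of all genes. At an unadjusted p under 0.05 the count was 1 (Sult1e1) with the rescaled error and 0 with the wider error that the deposited statistic gives.

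Cell-type markers moved with the diet as well. Of 5 macrophage markers, 4 rose in each vehicle group, and of 4 lymphocyte markers 3 rose. The summed FPKM of the macrophage markers went from 90.2 to 139 with the OCA vehicle and from 90.7 to 130 with the tropifexor vehicle. The hepatocyte markers had medians of -0.57 and -0.74, with 1 of 6 and 5 of 6 called lower, and of 5 stellate cell markers 3 rose in each group. The summed FPKM of the cholangiocyte markers went from 39.5 to 129 and from 39.7 to 173, with Spp1 (1.92 and 2.35) and Epcam (0.73 and 0.77) called higher and Krt19 (-0.62 and -0.73) called lower. The endothelial markers Kdr (-0.85 and -0.98) and Clec4g (-0.46 and -0.50) and the red cell markers Hbb-bs (-0.58 and -0.90) and Hba-a1 (-0.57 and -0.89) were called lower. The part of these shifts in the members' values was not tested. Adipocyte markers were untested, with Adipoq, Lep and Plin1 summing to at most 0.276 FPKM.

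**Figure D2:**
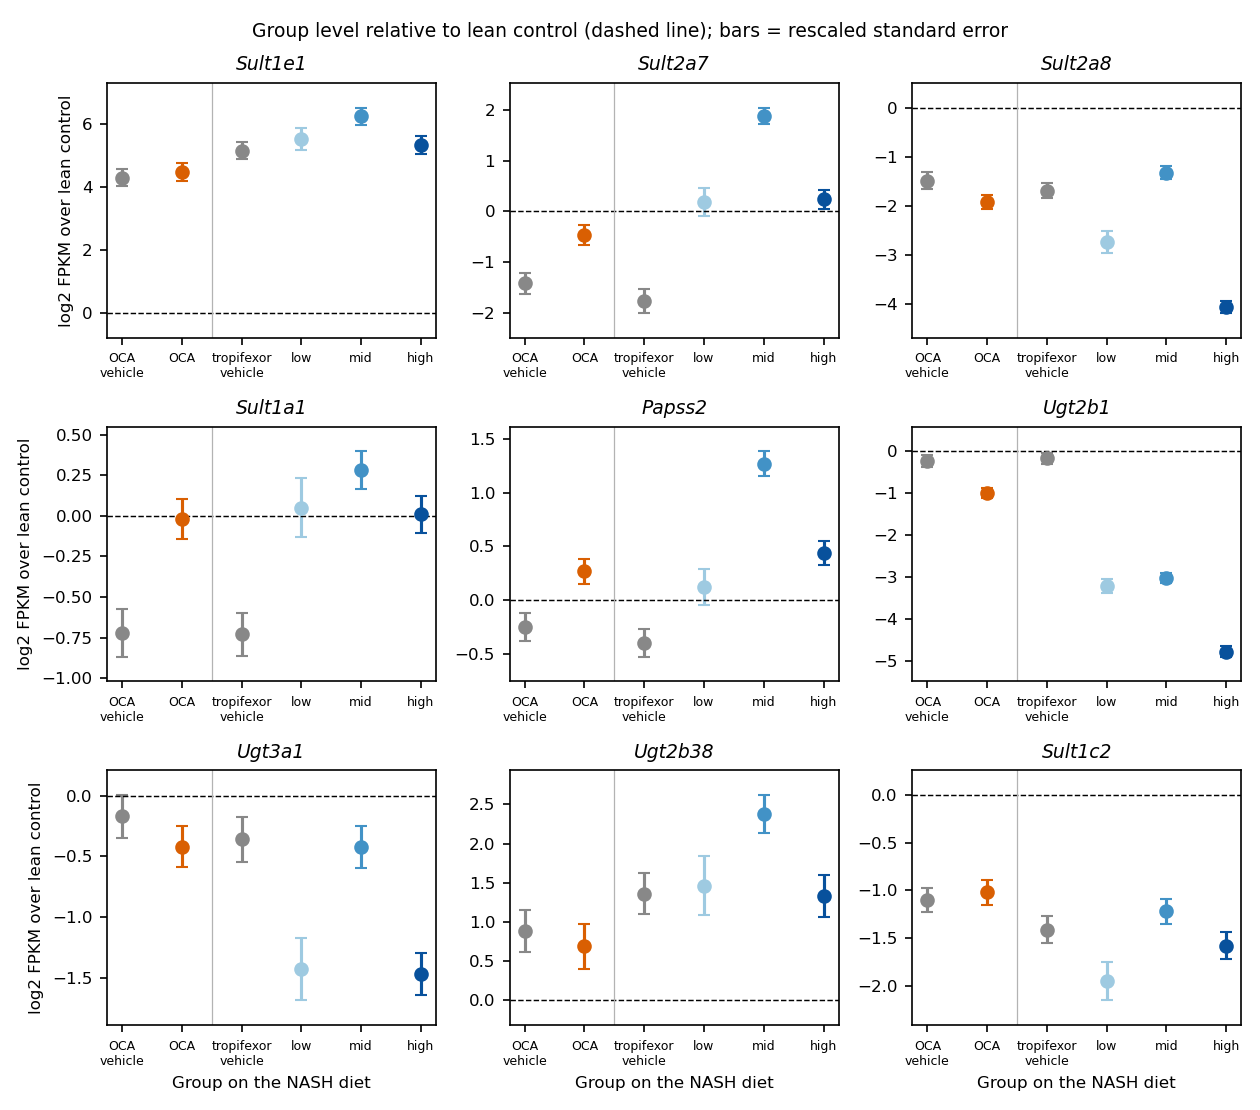
Points give the deposited log2 FPKM of 9 members over lean control (dashed line at 0) in the 6 NASH groups, with the rescaled standard error as bars; the grey points are the vehicle groups and axes differ between panels. Sult1a1 sits near -0.7 in both vehicle groups and near 0 with OCA and with the low and high doses, while Ugt2b1 falls from near 0 to -4.77 at the high dose.

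The main question was how each FXR agonist changed conjugation genes in NASH liver, each against its own vehicle. With OCA the PAPS synthase Papss2, Sult1a1 and Sult2a7 rose and Ugt2b1 fell, 1.71-fold. With high-dose tropifexor these 3 sulfation genes rose too, Ugt2b1 fell 24-fold and Sult2a8 fell 5.11-fold. The 3 tropifexor comparisons share 1 vehicle group, so their values are given side by side and not as repeats of each other. Among textbook FXR targets, Slc51b, a bile acid exporter subunit, went from 3.73 to 24.6 FPKM with OCA and from 3.28 to 222 FPKM at the high dose.

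With OCA, 3 of 28 tested members were called higher (10.7%), against 1.81% of all genes in the authors' deposited table, and 1 lower (3.57%), against 2.23%. At the low dose 4 of 30 were called higher (13.3%), against 6.03% of all genes, and 4 lower (13.3%), against 5.2%. At the mid dose 9 of 28 were called higher (32.1%), against 11.8% of all genes, and 1 lower (3.57%), against 15.7%. At the high dose 9 of 27 were called higher (33.3%), against 9.93%, and 6 lower (22.2%), against 15.5%. The members' medians were -0.05, -0.13, 0.34 and 0.08 in this order, against -0.01, -0.00, -0.01 and -0.05 over all tested genes.

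Papss2, which supplies the sulfate donor, stood at 52.8 FPKM in the OCA vehicle group and 75.5 with OCA, a rise of 0.52 (SE 0.141, q = 0.0134) in the authors' deposited table. At the low, mid and high tropifexor doses it stood at 73.5, 143 and 84.3 FPKM, against 51.1, 44.7 and 46.5 in the vehicle group as each table scales it. These rises were 0.52 (SE 0.183, q = 0.0445), 1.68 (SE 0.133, q = 0.000361) and 0.86 (SE 0.129, q = 0.000396) by the authors' deposited tables, the largest at the mid dose. The other synthase, Papss1, was called only at the high dose, where it fell by 0.53 (SE 0.148) from 6.63 to 4.59 FPKM. It had -0.08 with OCA, -0.44 at the low dose and -0.32 at the mid dose.

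Ugdh, the glucuronic acid donor enzyme, had no call against vehicle. Its fold changes were -0.03 with OCA and 0.12, -0.11 and 0.56 (q = 0.0703) at the low, mid and high doses in the authors' deposited tables. Its level at the high dose was 142 FPKM against 96.3 in vehicle. Its deposited locus spans 124 kb against 22.7 kb for the gene, so that its signal may not be its own alone.

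Sult1a1 went from 205 to 332 FPKM with OCA, a rise of 0.69 (SE 0.152, q = 0.00268) in the authors' deposited table. With tropifexor it went from 219 to 377, from 192 to 388 and from 200 to 336 FPKM at the low, mid and high doses. The rises of 0.78 (SE 0.194), 1.02 (SE 0.137) and 0.75 (SE 0.133) by the authors' deposited tables were close in size. The difference between the high dose and OCA was 0.06 (95% interval -0.34 to 0.45) and was not called. Its deposited locus also covers Sgf29 on the opposite strand, and it is unknown here if the counting kept strands apart.

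Sult2a7, a low-level neighbour of Sult2a8, went from 1.3 to 2.49 FPKM with OCA, a rise of 0.94 (SE 0.228, q = 0.00268) in the authors' deposited table. With tropifexor it reached 4.25 FPKM at the low dose from 1.09, 12.2 at the mid dose from 0.953, and 4.03 at the high dose from 0.993. These were rises of 1.96 (SE 0.338), 3.67 (SE 0.223) and 2.02 (SE 0.252) in the authors' deposited tables, or 3.88-, 12.7- and 4.06-fold. Among these values the mid dose was the highest.

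Its neighbour Sult2a8 behaved differently with each dose. It had -0.44 with OCA (176 to 130 FPKM, q = 0.212), fell by 1.04 at the low dose (SE 0.229; 166 to 80.7 FPKM), had 0.37 at the mid dose (144 to 186 FPKM, q = 0.0507) and fell by 2.35 at the high dose (SE 0.144; 150 to 29.5 FPKM), in the authors' deposited tables. The bile acid sulfotransferase with the highest level in lean liver thus stood 5.11-fold below vehicle at the high dose, while the gene beside it stood 4.06-fold above.

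At the end of the chromosome 5 cluster, Sult1b1 and Sult1d1 rose at the mid and high doses and Sult1e1 at the mid dose. Sult1b1 rose by 0.76 (SE 0.147; 16.6 to 28 FPKM) and 0.59 (SE 0.143; 17.2 to 26 FPKM) at the mid and high doses, and had 0.38 (q = 0.0975) with OCA and 0.20 at the low dose, in the authors' deposited tables. Sult1d1, which sulfates catecholamines, rose by 0.91 (SE 0.187; 69.7 to 131 FPKM) and 0.78 (SE 0.178; 72.5 to 125 FPKM) at the mid and high doses, with 0.27 for OCA and 0.11 for the low dose. Sult1e1, already raised by the diet, rose further at the mid dose, by 1.09 (SE 0.149; 11.1 to 23.8 FPKM) in the authors' deposited table. Its values with OCA and at the low and high doses were 0.19, 0.38 and 0.20 without a call. For Sult1e1 the mid dose was not called different from the low dose (0.71, 95% interval 0.15 to 1.28). Sult1c2, lowered by the diet, had 0.08, -0.54, 0.20 and -0.15 without a call.

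Of the rarer sulfotransferases, Sult2b1, which sulfates cholesterol and pregnenolone, was tested only at the low dose. It rose there by 1.68 (SE 0.502, q = 0.0313) from 0.146 to 0.469 FPKM in the authors' deposited table, and its gene overlaps Lmtk3 on the other strand. Sult2a2 had 4.17 at the low dose without a call (0.0233 to 0.418 FPKM). Sult5a1 was called lower at the high dose (3.6 to 0.389 FPKM, -3.21, q = 0.00753) in the authors' deposited table, with the same doubt about its locus. Its values with OCA and at the low and mid doses were -0.80, -1.52 and -0.44 without a call.

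Among the glucuronosyltransferases Ugt2b1, a transferase for steroids and drugs, stood apart. It was at 130 FPKM in the OCA vehicle group and 75.8 with OCA, a fall by 0.78 (SE 0.148, q = 0.00268) in the authors' deposited table. At the low dose it went from 144 to 17.6 FPKM, at the mid dose from 126 to 17.6, and at the high dose from 131 to 5.45. The authors' deposited tables give -3.03 (SE 0.184), -2.84 (SE 0.135) and -4.59 (SE 0.139), all called. Its transcript shares no stretch of 75 bases with another gene, and the genes on either side, Ugt2b34 and Ugt2b35, are about 70% identical to it (69.9% over 2350 and 69.8% over 2461 aligned bases).

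The other Ugt2 genes of the cluster were not called lower in any drug comparison against vehicle. Ugt2b34, the gene next to it, had -0.08 with OCA and -0.12, -0.06 and 0.08 at the low, mid and high doses. Ugt2b35 on the other side rose by 0.53 (SE 0.128; 52.6 to 76.2 FPKM) at the high dose and had -0.29, 0.26 and -0.22 with OCA and at the low and mid doses. Ugt2b36 rose by 0.46 (SE 0.15; 307 to 422 FPKM) at the mid dose and 0.61 (SE 0.149; 320 to 487 FPKM) at the high dose in the authors' deposited tables, and had 0.08 with OCA and -0.15 at the low dose. Ugt2b5, which is 87.1% identical to Ugt2b36 over 1850 aligned bases, rose by 0.51 (SE 0.134, 207 to 294 FPKM) at the high dose. It had -0.07, -0.23 and 0.18 with OCA and at the low and mid doses. Ugt2b5 shares 30.4% of its 75-base stretches with Ugt2b38 and Ugt2b37, so its value carries the same uncertainty as that of Ugt2b38. Ugt2a3 rose by 0.58 (SE 0.129; 71.9 to 107 FPKM) at the mid dose, with 0.30 for OCA, -0.13 for the low and 0.30 (q = 0.0685) for the high dose.

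Of the 2 low members of the cluster, Ugt2b37 and Ugt2b38, only Ugt2b38 had a call against vehicle. No test was made between these genes. Ugt2b38 rose by 1.02 (SE 0.212; 0.823 to 1.67 FPKM) at the mid dose in the authors' deposited table, and had -0.20, 0.11 and -0.02 with OCA and at the low and high doses. Ugt2b37 had values between -0.44 and -0.07 without a call.

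Both Ugt3a genes were called lower at the low and the high dose. Ugt3a1 was called lower at the low dose with -1.06 (SE 0.264; 48.3 to 23.1 FPKM) and at the high dose with -1.10 (SE 0.192; 43.9 to 20.5 FPKM) in the authors' deposited tables, and had -0.05 (42.2 to 40.8 FPKM) at the mid dose and -0.25 with OCA. Ugt3a2 was called lower with -0.86 (SE 0.189; 158 to 86.7 FPKM) and -0.51 (SE 0.129; 143 to 101 FPKM), with -0.11 at the mid dose and -0.19 with OCA. Its difference between the high and the mid dose was -0.41 (95% interval -0.77 to -0.04) and was not called. The 2 transcripts are 92% identical over 2233 aligned bases but share under 2% of their 75-base stretches (1.57% and 1.51%).

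**Figure D3:**
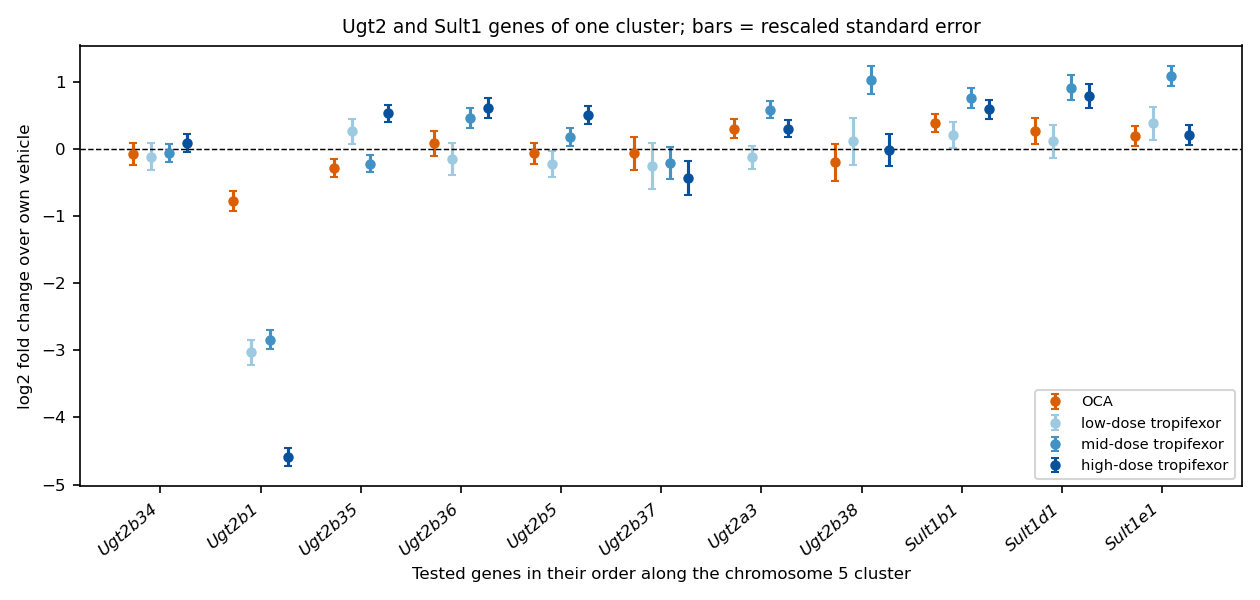
Points give the deposited log2 fold change over vehicle for the 11 tested genes of the chromosome 5 cluster in their order along the chromosome, for OCA (orange) and the 3 tropifexor doses (blue, darker with dose), with the rescaled standard error as bars. Ugt2b1 lies between -0.78 and -4.59, while the flanking Ugt2b34 lies within 0.12 of 0 and the Sult1 genes at the right end lie above 0.

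The Ugt1a genes are a special case, because they are alternative first exons joined to the same last exons. All 9 carry the same deposited locus of 165 kb, and between 57.7% and 100% of the 75-base stretches of each transcript occur in another gene. With OCA the SE was 1.11 for Ugt1a9, 0.812 for Ugt1a6a and 0.235 for Ugt1a1, and the part of the shared sequence in these errors was not tested. Ugt1a9 was called higher at the high dose, where it went from 11.1 to 99.5 FPKM, a rise of 3.16 (SE 0.674, q = 0.00107) in the authors' deposited table. With OCA and at the low and mid doses it had 0.63 (12.3 to 19.1 FPKM), 2.46 (12.2 to 67.2 FPKM, q = 0.589) and 1.64 (10.7 to 33.3 FPKM, q = 0.122) without a call.

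Ugt1a1, the bilirubin transferase and the largest part of the locus, had 0.02, -0.25, 0.31 and -0.03 with OCA and at the low, mid and high doses, without a call. Ugt1a5 had 0.69, -0.25, 1.39 and -0.23, Ugt1a6a -0.15, -0.74, 0.05 and 0.03, and Ugt1a6b -0.09, -0.88, -0.16 and -0.14. Ugt1a7c had values between -0.16 and 0.86, and Ugt1a10 between 0.08 and 0.44 in the 3 tables that tested it. With OCA and at the low dose Cuffdiff called 0 of 7 Ugt1a genes, and 0 had an unadjusted p under 0.05. At the mid dose it also called 0 of 7, with 2 (Ugt1a5 and Ugt1a9) at an unadjusted p under 0.05. The FPKM summed over the 9 genes, a quantity added after the values were seen, went from 488 to 500 with OCA and from 467 to 422, 408 to 530 and 425 to 505 at the low, mid and high doses.

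**Figure D4:**
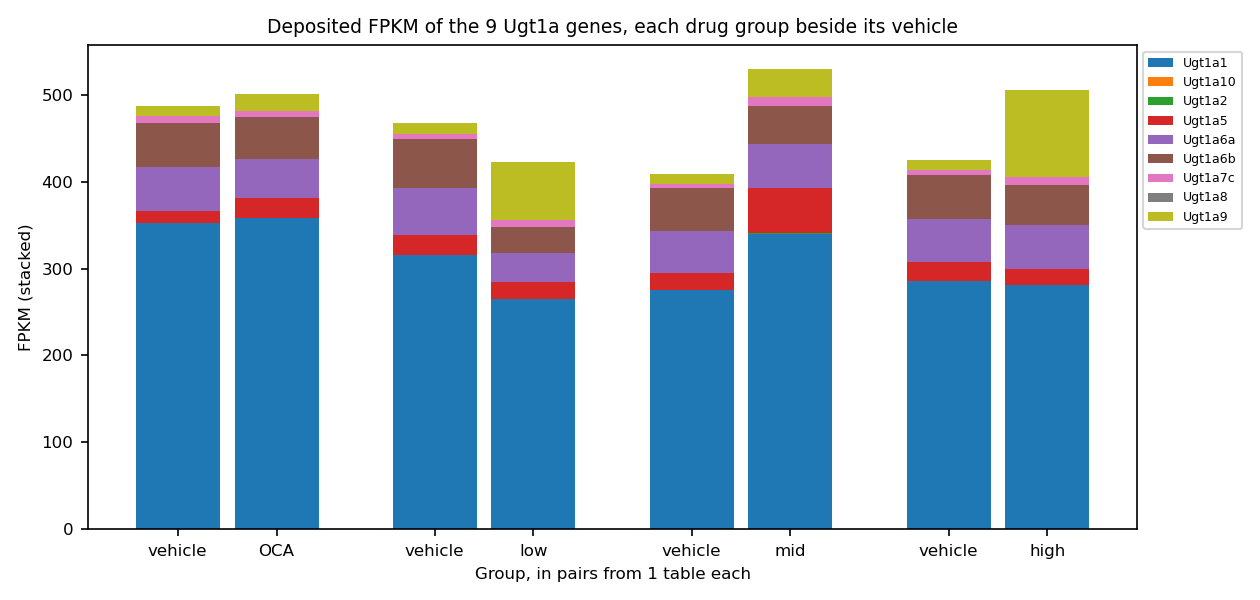
Stacked bars give the deposited FPKM of the 9 Ugt1a genes in each drug group beside its vehicle, with no error because each is 1 group value. Ugt1a1 forms the largest block in every bar (265 to 358 FPKM), and the Ugt1a9 block grows to 99.5 FPKM at the high dose.

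The doses were compared directly by the difference of fold changes over the shared vehicle, with all genes tested in both tables adjusted together. Papss2, Sult2a7, Sult2a8 and Ugt3a1 stood higher at the mid dose than at both the low and the high dose. Between the mid and the low dose, 6 of 28 members differed, all 6 higher at the mid dose, against 10.3% of all genes. Between the high and the mid dose, 8 of 27 differed, 7 of them lower at the high dose, against 2.32% of all genes. Between the high and the low dose 3 of 27 differed, against 5.63% of all genes. The first 2 of these comparisons were added after the values were seen.

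From the low to the mid dose Papss2 gained 1.16 (95% interval 0.71 to 1.60), Sult2a7 1.71 (0.92 to 2.51) and Sult2a8 1.41 (0.87 to 1.94). Ugt2a3 gained 0.71 (0.29 to 1.14), Ugt3a1 1.01 (0.37 to 1.66) and Ugt3a2 0.76 (0.31 to 1.21). From the mid to the high dose Papss2 dropped by 0.82 (interval -1.18 to -0.46), Sult2a7 by 1.65 (-2.31 to -0.99) and Ugt3a1 by 1.05 (-1.58 to -0.51). The same step took Sult2a8 down by the largest amount, -2.72 (-3.12 to -2.31). It took Ugt2b1 down by -1.75 (-2.13 to -1.37), Sult1e1 by -0.90 (-1.31 to -0.49) and Ugt2b38 by -1.04 (-1.67 to -0.41). Ugt2b35 alone was higher at the high than at the mid dose among the calls, by 0.75 (0.39 to 1.11).

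Between the high and the low dose, Ugt2b1 differed by -1.55 (-2.01 to -1.10), Sult2a8 by -1.31 (-1.84 to -0.78) and Ugt2b5 by 0.74 (0.28 to 1.20). By order alone, 20 of the 27 members tested at all doses (74.1%) had their highest fold change at the mid dose, against 37.7% of 15265 genes. Of the 18 called at 1 dose or more it was 14 (77.8%), against 35.9% of 5532 genes. These are counts without a test. They include genes such as Ugt2b1 whose mid and low values (-2.84 and -3.03) lie within their errors.

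These difference calls depend on the error. With the wider error that the deposited statistic gives, 0 of the mid-minus-low calls, 2 of the high-minus-mid calls (Sult2a8 and Ugt2b1) and 0 of the high-minus-low calls were made. At an unadjusted p under 0.05 that error left 3 members for mid minus low (Papss2, Sult2a7 and Sult2a8) and 2 for high minus low (Sult2a8 and Ugt2b1).

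**Figure D5:**
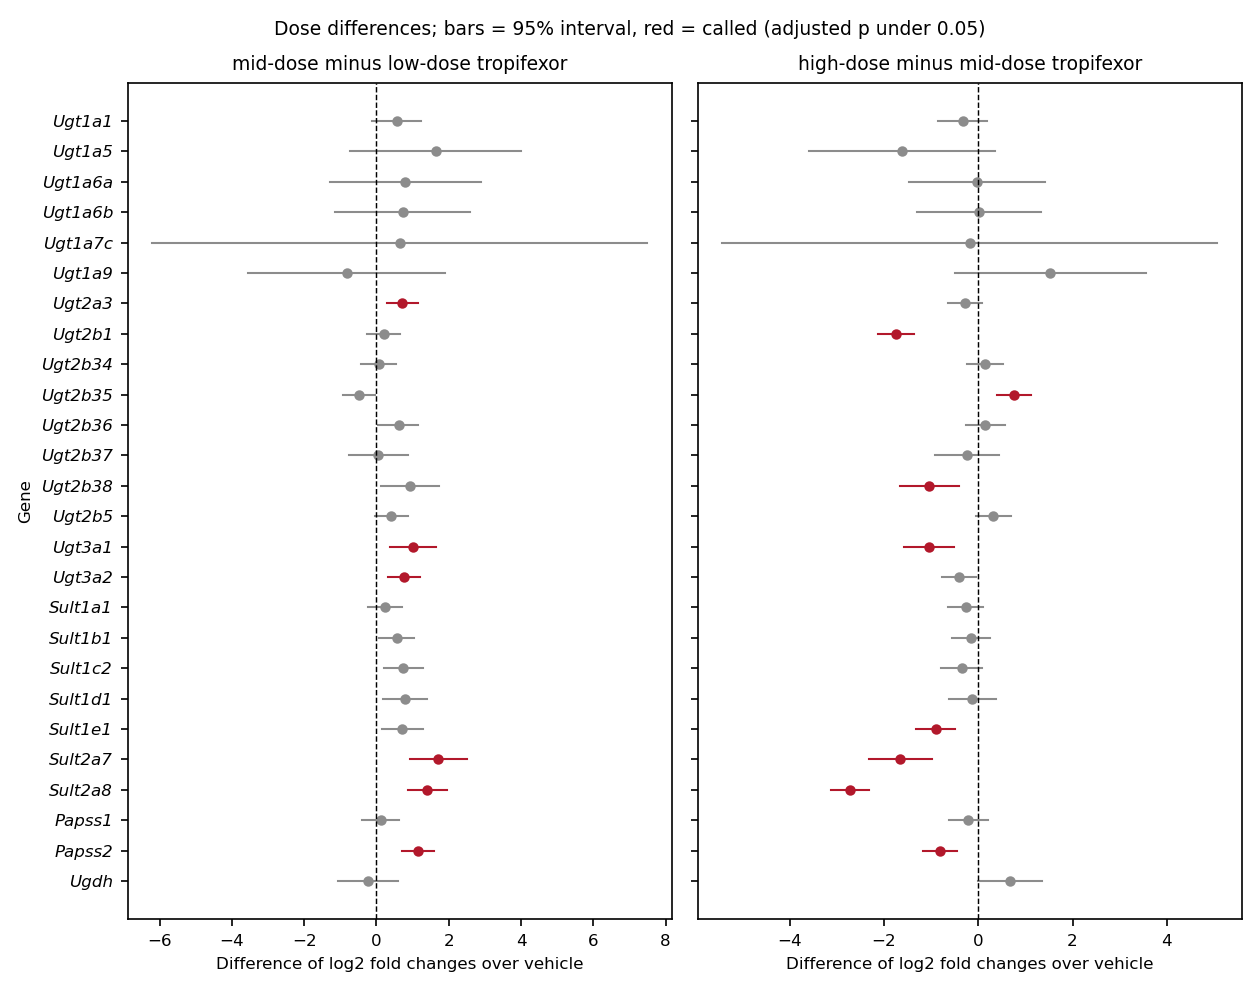
Points give the difference of log2 fold changes over vehicle between the mid and low doses (left) and the high and mid doses (right) for 26 members, with 95% intervals as bars and calls in red. The red points on the left all lie above 0, and those on the right lie below 0 except Ugt2b35 at 0.75.

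OCA, a bile acid derivative, and tropifexor, an agonist without that structure, were given at different doses, so the comparison is of the regimens. At the high dose 6 of 27 members differed from OCA, against 11.4% of all genes, and at the low dose 1 of 28, against 5.24%. High-dose tropifexor stood below OCA for Ugt2b1 by -3.81 (-4.21 to -3.41), for Sult2a8 by -1.92 (-2.36 to -1.47) and for Ugt3a1 by -0.84 (-1.36 to -0.33). It stood above OCA for Sult2a7 by 1.09 (0.42 to 1.75), for Ugt2b35 by 0.83 (0.46 to 1.19) and for Ugt2b5 by 0.58 (0.18 to 0.98). The 1 call at the low dose was Ugt2b1, by -2.26 (-2.72 to -1.79). With the wider error Ugt2b1 and Sult2a8 remained of the 6 calls at the high dose, and Ugt2b1 remained at the low dose.

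Against lean control, the question was which members came back to the lean level and which stayed away from it. With OCA 2 of 28 members were called higher (7.14%), against 10.3% of all genes, and 4 lower (14.3%), against 6.5%. At the low dose 4 of 30 were called higher (13.3%), against 13.8%, and 6 lower (20%), against 10.1%. At the mid dose 7 of 28 were called higher (25%), against 11.7%, and 4 lower (14.3%), against 11.5%. At the high dose 11 of 28 were called higher (39.3%), against 12.2%, and 6 lower (21.4%), against 15.2%.

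Sult1a1 lay near the lean level in the treated groups, with -0.02 (SE 0.123) for OCA and 0.05, 0.28 and 0.01 for the low, mid and high doses, none of them called in the authors' deposited tables. Sult1e1 stayed far above lean in every treated group, by 4.49, 5.53, 6.26 and 5.35 in the same order, which took it from 0.288 to 22.1 FPKM in the table of the mid dose. Sult2a8 stayed below lean, with -1.92 for OCA and -2.73, -1.32 and -4.05 for the 3 doses in the authors' deposited tables. At the high dose it stood at 27.1 FPKM against 450 in lean control, 16.6-fold lower. Sult2a7 passed the lean level at the mid dose with a rise of 1.89 (SE 0.162; 3.03 to 11.2 FPKM), and had -0.47, 0.18 and 0.24 with OCA and at the low and high doses without a call.

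Ugdh was called against lean only at the high dose, with a rise of 0.96 (SE 0.21; 67 to 131 FPKM) in the authors' deposited table, a comparison in which diet and drug add up. Papss2 rose above lean by 1.27 (SE 0.115) at the mid and 0.44 (SE 0.11) at the high dose. Sult1c2 stayed below lean in all treated groups, by -1.02, -1.95, -1.22 and -1.58. Ugt2b1, which the diet had left near its lean level, stood below lean by -0.99, -3.20, -3.01 and -4.77 in the authors' deposited tables. Ugt3a2 was called lower in each treated group, by -0.33, -1.08, -0.33 and -0.74.

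The high dose had the most calls above lean. Beside the genes named so far, Ugt2b5, Ugt2b35 and Ugt2b36 were called higher there by 0.44, 0.59 and 0.45, Sult1b1 and Sult1d1 by 0.39 and 0.56, and Ugt1a9 by 2.18 in the authors' deposited table. Ugt2b37 and Ugt2b38, at 0.518 and 0.78 FPKM, were called higher by 0.85 and 1.33, and Ugt3a1 was called lower at -1.47. Sult5a1, whose locus is in doubt, had -4.41 with a call. At the mid dose Sult1b1 and Sult1d1 were called above lean by 0.56 and 0.69, and Ugt2b37 and Ugt2b38 by 1.09 and 2.38. At the low dose Ugt2b37, Ugt2b38 and Sult2b1 were called higher by 1.04, 1.46 and 2.89, and Ugt3a1 and Ugt2a3 lower at -1.43 and -0.56. With OCA Ugt2b37 was called higher by 1.02.

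The genes around these enzymes were counted from lists of the pathway. Such counts stand beside 1.81%, 6.03%, 11.8% and 9.93% of all tested genes called higher, and 2.23%, 5.2%, 15.7% and 15.5% called lower, with OCA and at the low, mid and high doses. Of 15 genes of cofactor supply and sulfate handling, 14 were tested in each drug table. With OCA Cuffdiff called 0 of them, and 2 (Bpnt1 and Cth) had an unadjusted p under 0.05. At the low, mid and high doses 2, 3 and 3 rose and 3, 0 and 4 fell, with medians of -0.27, 0.11 and -0.13 against -0.00, -0.01 and -0.05 over all tested genes. Cth, which makes cysteine from cystathionine and so feeds sulfate production, rose by 1.74, 2.58 and 1.72 at the 3 doses in the authors' deposited tables. Suox, which oxidizes sulfite to sulfate, rose by 0.91 (49.6 to 93.5 FPKM) at the mid dose. Nudt7, a hydrolase of coenzyme A, had -1.14 at the low and -0.88 at the high dose, and the sulfate transporter Slc26a1 had -0.74 and -0.61 there, all called in the authors' deposited tables.

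Of 14 genes that carry conjugates or split them, 13 were found and tested. With OCA 0 rose and 2 fell, and at the low, mid and high doses 2, 3 and 1 rose and 4, 6 and 4 fell. The medians were -0.24, -0.49, -0.52 and -0.22, against -0.01, -0.00, -0.01 and -0.05 over all tested genes. The uptake carrier Slco1a1 was called lower with OCA at -0.69 and at the 3 doses with -4.48, -2.90 and -6.35 in the authors' deposited tables. Abcb1a, an export pump, rose by 3.50, 4.20 and 3.72. Abcc4, an exporter of sulfated and glucuronidated compounds, rose by 1.97 at the low dose and was called lower with OCA (-0.86) and at the mid dose (-1.08).

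Among 16 transcription factor genes known to act on conjugation genes, Nr1i2, which encodes the xenobiotic receptor PXR, rose in every drug group, by 0.40 with OCA and by 1.53, 2.23 and 1.85 at the 3 doses in the authors' deposited tables. Nr1h4, the FXR gene itself, was called lower with -1.49, -1.27 and -1.70 at the 3 doses. In all, 1, 2, 4 and 3 of the tested genes rose and 1, 5, 4 and 5 fell with OCA and at the low, mid and high doses, with medians of -0.09, -0.14, 0.16 and -0.21 against the same medians over all tested genes. Hnf4a, a master factor of the hepatocyte, rose by 1.13 at the mid dose.

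Target genes of these factors did not all move one way. Of 5 targets of CAR and PXR, 1, 1, 2 and 2 rose and 2, 2, 3 and 3 fell with OCA and at the low, mid and high doses. The glutathione transferase Gstm3 rose by 3.99 at the high dose, and Cyp2c29 fell by 5.55 there, by the authors' deposited table. Of 4 NRF2 targets, 1, 3, 1 and 3 rose, and Nqo1 rose by 1.59 at the low and 1.72 at the high dose. The NRF2 target Gclc was called lower at the mid dose, with -1.02. Of 4 PPAR alpha targets, 1, 3, 3 and 3 fell, among them Cyp4a14 with -3.70 at the mid dose, while Pdk4 rose by 1.63 at the mid and 2.06 at the high dose. Of 4 AHR targets at most 3 were tested, and the 1 call was Tiparp with a rise of 0.57 at the mid dose; at an unadjusted p under 0.05 the counts with OCA and at the low, mid and high doses were 2, 2, 1 and 1. Of 4 FXR targets 2, 2, 3 and 3 rose.

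Many conjugation genes differ between male and female mouse liver, so sex-biased genes were counted too. Of 11 genes higher in males, 10 were tested, and 1, 1, 4 and 2 rose while 5, 8, 3 and 6 fell with OCA and at the low, mid and high doses. The medians were -0.59, -1.26, 0.05 and -0.94. The male-biased fatty acid elongase Elovl3 had -1.03 with OCA, -0.77 at the low dose, 1.49 at the mid dose and 0.35 at the high dose, all called, in the authors' deposited tables. Of 11 genes higher in females, 8, 8, 7 and 7 were tested with OCA and at the low, mid and high doses. Of those tested, 2 rose in each drug group and 0, 3, 2 and 4 fell. Cyp2b9, a cytochrome P450 higher in female liver, had called values of -5.71, -7.24 and -8.61 at the 3 doses, by the authors' deposited tables.

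Markers of other cells also moved with the drugs, and their part in the members' changes was not tested. The summed FPKM of 6 cholangiocyte markers went from 138 to 208 with OCA, from 196 to 312 at the low dose, from 172 to 70.3 at the mid dose and from 179 to 115 at the high dose. Of these markers 2, 4, 0 and 0 rose and 0, 0, 2 and 1 fell, with Krt19 up by 1.22 and Sox9 by 1.03 at the low dose. Of 5 macrophage markers 2, 0, 4 and 3 fell and Cd14 rose at the low dose, and their sums went from 148 to 109, 149 to 138, 130 to 81.9 and 135 to 105. Of 5 stellate cell markers 0, 1, 4 and 4 fell, with Col1a1 at -3.03 at the mid dose, and of 4 lymphocyte markers 3, 0, 3 and 3 fell. Endothelial markers fell in 1, 1, 2 and 2 cases of 4, and of 3 red cell markers Alas2 fell at the low dose and Hbb-bs rose at the mid dose. Hepatocyte markers had medians of 0.10, -0.02, 0.34 and -0.11, with 0, 0, 2 and 1 of 6 called higher and 0, 1, 1 and 1 lower, beside -4.59 for Ugt2b1 and -2.35 for Sult2a8 at the high dose.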

How the data were processed

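Liver RNA of 28 mice in 7 groups of 4 was analysed from 10 deposited gene tables of pairwise comparisons. Trizol extraction and a stranded mRNA library kit are given per the labels' protocols. The software named comprises bcl2fastq, STAR 2.5.1b, Cufflinks 2.2.1, Cuffnorm and Cuffdiff and the build GRCm38 (the submitters' processing notes, without role or order). The FPKM values are the authors' deposited group values, per the file headers, scaled separately in each table. The log2 fold changes, the test statistic (a score), the p-value and the q-value are the authors' deposited Cuffdiff output, per the file headers. No column of per-sample values was left unmapped (0 columns). Depth per sample is unknown. The labels name 4 separate samples a group without saying more of their source, so p-values measure the spread between these samples.

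Vehicle columns, whose headers name no compound, were read by their table's name and set against both vehicle groups over 10882 to 11309 genes. Because each table has its own scale, the median log2 ratio over these genes was subtracted first. What remained was at most 0.000933 (median absolute log2) from the same vehicle group in its table against lean control. From the other vehicle group it was at least 0.0876.

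The standard error of a fold change was the fold change divided by the statistic, divided again by the median ratio (2.03 to 2.05 by table) of the normal z of the deposited p to the statistic. It was taken over genes with p between 0.0002 and 0.9. Differences of 2 fold changes were tested with a normal test and Benjamini-Hochberg adjustment over all genes usable in both tables, 6 comparisons in all, and called at an adjusted p under 0.05. Only the interval and the call are printed, since normal p-values from groups of 4 are not exact. The difference test was also run on simulated data, with noise drawn from the same errors that the test uses. That run therefore cannot show if the errors are right for these groups. Where the effects share a vehicle or lean group the summed variance is wider than needed.

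Members and lists were chosen with earlier results of these data known. The lists are cofactor supply, carriers and deconjugation, transcription factors, targets of CAR and PXR, AHR, NRF2, PPAR alpha and FXR, genes higher in females or males, and cell markers. Every called member is named, members without a call are given where called elsewhere or among the 5 highest of their class, and at most 4 called genes are named per list and comparison. The values of 1 list gene are not reported here. Positions and shared stretches of 75 bases come from GENCODE M21 and promoters from RefSeq. Motifs were searched on both strands. Alternatives were stricter and looser q, an FPKM minimum of 1, a log2 fold change of at least 1, re-adjusted p-values, log2(FPKM + 1), median centring, and other errors for the differences. Python 3.11.15, pandas 2.3.3, scipy 1.17.1 and Biopython 1.88 were used.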

Additional observations from a re-analysis of the deposited data

Results flagged for a closer look

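These are the members whose effect differed between 2 drug groups by the test of the difference itself (log2, first minus second, rescaled error). Nothing is said here of why they differ, and no outlier check was possible with 1 value per group.

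High-dose tropifexor minus OCA gave -3.81 for Ugt2b1, -1.92 for Sult2a8, -0.84 for Ugt3a1, 1.09 for Sult2a7, 0.83 for Ugt2b35 and 0.58 for Ugt2b5. Low-dose tropifexor minus OCA gave -2.26 for Ugt2b1.

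The high minus the low dose gave -1.55 for Ugt2b1, -1.31 for Sult2a8 and 0.74 for Ugt2b5. The mid minus the low dose gave 1.71 for Sult2a7, 1.41 for Sult2a8, 1.16 for Papss2, 1.01 for Ugt3a1, 0.76 for Ugt3a2 and 0.71 for Ugt2a3. The high minus the mid dose gave -2.72 for Sult2a8, -1.75 for Ugt2b1, -1.65 for Sult2a7, -1.05 for Ugt3a1, -1.04 for Ugt2b38, -0.90 for Sult1e1, -0.82 for Papss2 and 0.75 for Ugt2b35.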

How the results depend on the processing

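Of 73 recomputed counts of called members, 62 stayed within 1.5 times the reported count and 11 did not; no fold change reversed. Requiring a log2 fold change of at least 1 left 5 members for the diet in the OCA vehicle group (9 reported), 0 with OCA (4), 5 at the low dose (8), 6 at the mid dose (10) and 6 at the high dose (15), and 8 at the high dose against lean control (17); these drops follow from the added limit on size. With the error that the deposited statistic gives, differing members were 2 for high dose minus OCA, 0 for high minus low, 0 for mid minus low and 2 for high minus mid, because that error is wider. With effects taken against lean control, 5 members differed between the low dose and OCA (1 reported); the cause was not tested. An error from each gene's own p, chosen after seeing the data, lost Ugt2b5 for high dose minus OCA and Ugt2b38 for high minus mid. Effects at the smallest p that Cuffdiff gave kept the rescaled error. The interval of Ugt2b1 for high dose minus OCA was therefore -4.21 to -3.41 with either error. Calls where both effects were at that p, such as those of Ugt2b1 and Sult2a7, were thus not tested by this alternative. On the log2(FPKM + 1) scale 34 of 99 called fold changes moved by more than their standard error, and centring on the median gene moved 0 of 99. No paired analysis was possible because the tables hold group values without replicates, and for the same reason no animal could be left out in turn. Calls of Ugt2b37 and Ugt2b38 in the diet comparisons rest on levels below 1 FPKM.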
